A study of Mus musculus with 44 samples.

Results

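The hyaluronan matrix that forms around the oocyte at ovulation was described through 9 genes, Has2, Ugdh, Tnfaip6, Ptx3, Vcan, Hapln1, Cd44, Cemip2 and Hyal2. They were taken by gene symbol, and each of the 9 was found in both gene tables of the study, of 22674 genes in the table for follicle maturation and 18274 genes in the table for ovulation. The study measured RNA of ovarian follicles from wild-type CD-1 mice, an outbred strain, in 44 libraries. Follicles were exposed to PFNA, perfluorononanoic acid, in the gonadotropin-dependent maturation window or in the ovulation window, which is opened with hCG, the chorionic gonadotropin used in place of the luteinizing hormone surge. In the maturation window 11 control libraries labelled DMSO were compared with 10 libraries labelled PFNA. In the ovulation window 12 control libraries labelled hCG were compared with 11 libraries labelled hCG+PFNA, so hCG is common to both of these groups. The dose, the times, the age of the animals and the number of follicles in a library are not given in the labels. Whether DMSO was also given to the PFNA groups or in the ovulation window is not given either.

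Before ovulation, the cumulus granulosa cells around the oocyte make hyaluronan, a long unbranched sugar chain that is extruded from the cell by a synthase in the plasma membrane, and the chains are tied into an elastic gel that pushes the cells apart. Tying needs proteins that hold chains together: TSG-6, the product of Tnfaip6, moves heavy chains of inter-alpha-inhibitor onto hyaluronan, pentraxin 3 from Ptx3 joins those heavy chains, and the proteoglycan versican and link proteins add to the network. The luteinizing hormone signal reaches the cumulus through EGF-like factors and prostaglandin E2, and the oocyte adds GDF9 and BMP15. CD44 is a cell surface receptor for hyaluronan, and hyaluronidases cut it.

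On GRCm38, by the maturation table, Has2 lies on chromosome 15 from 56665627 to 56694539, Ugdh on chromosome 5 from 65413221 to 65435949 and Cd44 on chromosome 2 from 102811141 to 102901665, each on the minus strand. Tnfaip6 (chromosome 2, 52038009 to 52056686), Ptx3 (chromosome 3, 66219910 to 66225805), Cemip2 (chromosome 19, 21778342 to 21858360) and Hyal2 (chromosome 9, 107567945 to 107572779) lie on the plus strand. Vcan (minus strand, 89655312 to 89742509) and Hapln1 (plus strand, 89539796 to 89611652) lie close to each other on chromosome 13, and their products bind each other on hyaluronan. In GENCODE M21, Has2 shares 182 exon bases with the antisense gene Has2os, Cemip2 shares 97 with the antisense AC148016.1, and Ugdh shares 158 with Gm43552 on its own strand. The use of strand in counting is not given in the sources used here, so reads of these pairs cannot be told apart.

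The sequences before the transcription start are shown for the 3 members that were lowered the most by PFNA in the ovulation window, Ptx3, Tnfaip6 and Vcan, and for Hyal2, which was lowered the least. Each is the 250 bases before the start in RefSeq on GRCm38.p6, 5' to 3' on the gene's own strand. The places are chr3:66219637-66219886 (plus strand), chr2:52037863-52038112 (plus), chr13:89742513-89742762 (minus) and chr9:107568913-107569162 (plus). Capitals mark every match to the motifs searched.
Ptx3: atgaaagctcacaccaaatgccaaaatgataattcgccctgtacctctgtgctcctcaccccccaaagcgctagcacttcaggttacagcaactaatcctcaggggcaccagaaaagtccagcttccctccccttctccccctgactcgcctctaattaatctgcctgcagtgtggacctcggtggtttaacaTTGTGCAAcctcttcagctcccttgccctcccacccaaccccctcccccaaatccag
Tnfaip6: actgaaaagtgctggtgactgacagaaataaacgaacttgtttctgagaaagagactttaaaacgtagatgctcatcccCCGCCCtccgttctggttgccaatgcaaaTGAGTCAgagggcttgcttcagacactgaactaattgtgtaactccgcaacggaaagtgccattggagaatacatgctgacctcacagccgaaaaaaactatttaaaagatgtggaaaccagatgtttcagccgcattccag
Vcan: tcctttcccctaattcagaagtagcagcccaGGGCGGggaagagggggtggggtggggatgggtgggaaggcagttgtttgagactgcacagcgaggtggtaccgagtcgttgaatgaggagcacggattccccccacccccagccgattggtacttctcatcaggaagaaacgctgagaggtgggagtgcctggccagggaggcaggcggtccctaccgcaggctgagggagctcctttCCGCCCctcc
Hyal2: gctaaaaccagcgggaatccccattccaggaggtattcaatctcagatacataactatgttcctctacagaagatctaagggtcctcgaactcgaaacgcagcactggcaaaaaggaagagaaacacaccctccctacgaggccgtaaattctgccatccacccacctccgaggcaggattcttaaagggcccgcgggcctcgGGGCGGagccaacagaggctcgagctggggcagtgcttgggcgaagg
Of the 9 members 7 had a sequence in this table, and the others were Has2 and Cemip2. The motifs were searched on both strands in all 32536 promoters of the table over the same 250 bases. Ptx3 held the C/EBP motif TTGCNNAA, 57 to 50 bases before its start, and 9.57% of all promoters hold it. Tnfaip6 held the AP-1 motif TGANTCA, 142 to 136 bases before its start, which 6.73% of promoters hold. The Sp1 GC box GGGCGG, present in 33% of promoters, was matched in Tnfaip6, Vcan, Ugdh and Hyal2. Hapln1 held the RUNX motif TGTGGT (14% of promoters), and Cd44 held no match to any motif searched. None of the 7 held the cAMP response element TGACGTCA (1.56% of promoters), its core TGACG (17.9%), the TATA box TATAAA (12.3%), the NF-kappaB motif GGGANTTCC (1.44%) or a PPAR direct repeat of AGGTCA with a single base between the copies (0.0338%). TGACGTCA contains TGACG. A match describes letters only, and its absence says only that those letters are not in this window.

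The totals of the ovulation libraries were 11961105 to 16045751 counts in controls and 10600931 to 19511531 counts with PFNA. The maturation table holds TPM (a share of transcripts that allows for transcript length), for which the depth is unknown. Labels do not say that libraries came from separate animals or cultures, so the p-values measure the spread between these libraries, which may be technical. CPM are counts scaled to a library total of 1000000, after TMM normalization for single genes and without it for marker sums. Granulosa markers, 7 genes, summed to between 9629 and 15786 CPM in the ovulation window and between 13653 and 48989 TPM in the maturation window. These sums rest mostly on Inha and Inhba, with control medians of 7022 and 6350 CPM and of 34768 and 3641 TPM. Other granulosa markers were low, and the lowest Amh value was 0 in the PFNA group of each window. Oocyte markers, 8 genes, summed to 84.62 to 162.2 TPM in maturation controls and to at most 2.09 TPM in 7 of the 10 maturation PFNA libraries, while PFNA replicates 1, 2 and 10 had 85.11, 77.75 and 183.8 TPM. In the ovulation window they summed to 53.36 to 349.7 CPM in controls and to 110.8 to 334.3 CPM in 10 PFNA libraries, and PFNA replicate 5 was at 0. Theca markers were called higher for 1 and lower for 1 of 5 in the maturation window and higher for 3 of 5 in the ovulation window, and fibroblast markers for 0 of 5 in the former and 2 higher and 1 lower of 5 in the latter. Of the endothelial markers 0 of 3 tested were called in the maturation window. Of all genes tested, 13.3% were called higher and 16.1% lower in the maturation window, and 38.0% and 35.2% in the ovulation window. No marker of the 6 cell type lists was at 0 in every library of a window.

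In follicles given hCG, every one of the 9 hyaluronan matrix genes was lower with PFNA. The cross-linker genes were the most reduced, Ptx3 by a factor of 84.1 and Tnfaip6 by a factor of 17.3, followed by Vcan at 6.91, Cemip2 at 5.37, Ugdh at 3.56, Hapln1 at 3.0, Cd44 at 2.53, Has2 at 1.87 and Hyal2 at 1.35 (edgeR, 12 control and 11 PFNA libraries). The synthase itself was among the least reduced members, while both cross-linker genes were the most reduced. The link protein gene Hapln1 lay between them, less reduced than Cemip2 and Ugdh. In a bulk sample, fewer cells of a type and less RNA per cell cannot be told apart.

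Of the 13441 genes tested in the ovulation window, 35.2% were called lower and 38.0% higher at an edgeR adjusted p under 0.05, so 73.2% were called in either direction. The members stood at 9 of 9 lower and 0 higher. They were chosen with earlier results of these data known, so their shares describe them and are no independent support. The members' median log2 fold change was -1.83, where that of all genes tested was 0.04. At least 2-fold lower were 7 of 9 members, against 9.02% of genes (18.1% were at least 2-fold higher). For 5 of 9 members, Ptx3, Tnfaip6, Vcan, Cemip2 and Ugdh, all 11 PFNA libraries lay below every control, which held for 14.1% of genes (11.9% had every PFNA library above every control). Each of the 9 calls was made under every other setting tried, including each of the 23 fits that left out a library. Of the 7 granulosa markers 4 were called higher and 2 lower (sums of 11674 to 15786 CPM in controls and 9629 to 13830 CPM with PFNA), and 4 of 4 endothelial markers were higher (29.36 to 108.5 and 32.22 to 305.2 CPM). Their part in the members' fall was not tested. Summed over the 9 genes, the members held 0.8597 to 1.878% of a library's counts in controls (median 1.158%) and 0.1426 to 0.3622% with PFNA (median 0.1869%).

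**Figure D1:**
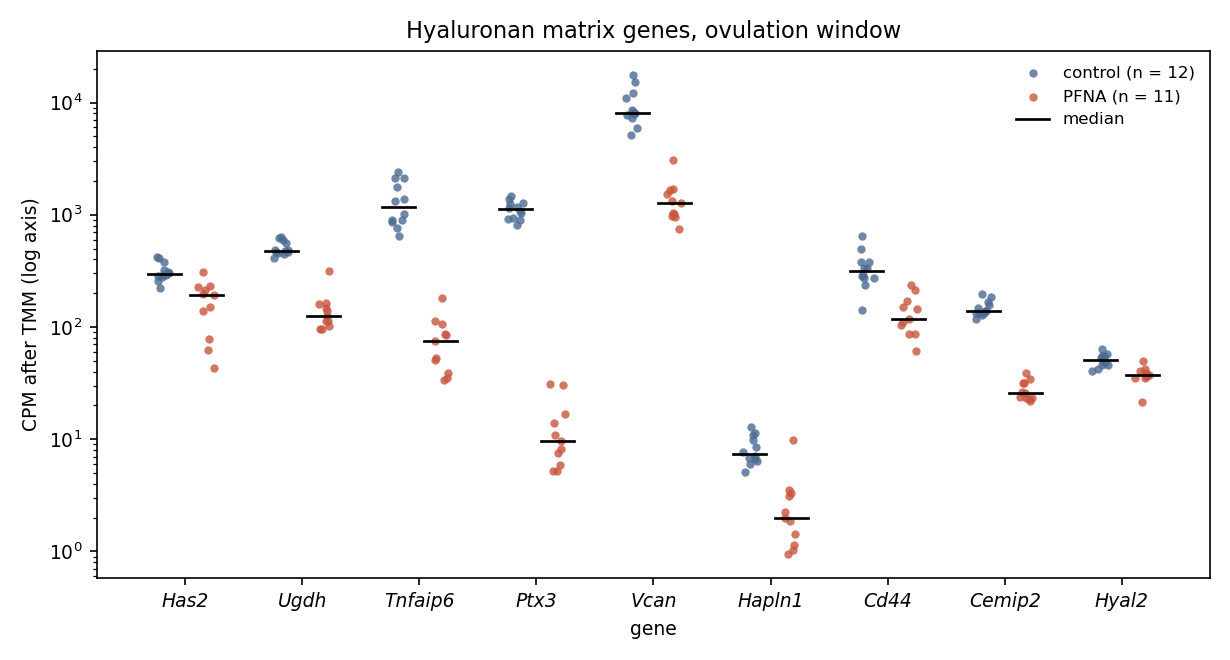
Level of the 9 members in each library of the ovulation window, in CPM on a log axis, for 12 controls (blue) and 11 PFNA libraries (red), with group medians as black bars. The groups part completely for Ugdh, Tnfaip6, Ptx3, Vcan and Cemip2, and overlap for Has2, Hapln1, Cd44 and Hyal2.

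The chain makers came first. Has2 encodes the hyaluronan synthase of cumulus cells. It ranged from 220.2 to 424.0 CPM in controls (median 295.1) and from 42.74 to 309.3 CPM with PFNA (median 193.6). The groups overlapped, since 8 of 11 PFNA libraries lay below the lowest control and PFNA replicates 3, 8 and 9 (230.4, 309.3 and 228.4 CPM) lay within the control range. The mean fell from 314 ± 60.9 (SD, n = 12) to 168 ± 81.9 CPM (SD, n = 11), which is -0.90 ± 0.238 (SE) on the log2 scale (edgeR adjusted p = 0.0016). PFNA libraries were far less alike than controls for this gene, with an SD of 0.89 on the log2 scale against 0.27. PFNA replicates 10, 2 and 6 were the lowest, at 42.74, 62.7 and 78.16 CPM.

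Ugdh encodes UDP-glucose dehydrogenase, which makes UDP-glucuronic acid, a building block of hyaluronan and of the chondroitin sulfate chains of versican. It ranged from 410.8 to 639.4 CPM in controls (median 478.8) and from 96.24 to 316.6 CPM with PFNA (median 124.4). No library of one group reached the other, and PFNA replicate 6 was the highest treated library, with the next at 162.2 CPM. The mean fell from 508 ± 75.8 to 143 ± 62.4 CPM (SD, n = 12 and 11), which is -1.83 ± 0.162 (SE) on the log2 scale (edgeR adjusted p = 2.7e-10).

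The cross-linkers showed the widest gaps. Ptx3 encodes pentraxin 3, a multimeric protein without which the cumulus matrix does not hold together. Its level was 802.9 to 1476 CPM in controls (median 1116) and 5.196 to 30.96 CPM with PFNA (median 9.714). The lowest control was far above the highest treated library, and the treated libraries carried 71 to 618 counts of it. In log2 units the change was -6.39 ± 0.328 (SE; edgeR adjusted p = 2.6e-14), from means of 1113 ± 207 and 13.2 ± 9.40 CPM (SD, n = 12 and 11). Of all 13441 genes tested, Ptx3 was number 2 in order of the size of the decrease.

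Tnfaip6 encodes the TSG-6 protein that loads heavy chains onto hyaluronan. Controls spread widely, from 642.8 to 2392 CPM (median 1170), and PFNA libraries lay between 33.49 and 182.7 CPM (median 74.39). Again no library of one group reached the other. The mean fell from 1349 ± 608 to 77.9 ± 44.6 CPM (SD, n = 12 and 11), which is -4.11 ± 0.323 (SE) on the log2 scale (edgeR adjusted p = 4.6e-11). The C/EBP and AP-1 letters shown above in the Ptx3 and Tnfaip6 promoters were each found in only 1 of the 7 members with a sequence, so no motif searched was common to both cross-linkers.

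Vcan, the versican gene, took a large share of the counts, as a long transcript can. It took 0.53 to 1.503% of all counts in a control library (median 0.8107%) and 0.07811 to 0.2824% in a PFNA library. Its level was 5091 to 17702 CPM in controls (median 8142) and 744.4 to 3067 CPM with PFNA (median 1261). The groups did not overlap, and PFNA replicate 6, the highest treated library, was well apart from the next at 1697 CPM. By edgeR the change was -2.79 ± 0.238 (SE) in log2 units (adjusted p = 1.5e-10), from means of 9598 ± 3793 and 1389 ± 638 CPM (SD, n = 12 and 11).

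Hapln1, the link protein that clamps versican-type proteoglycans to hyaluronan, was at low counts. It ranged from 5.146 to 12.8 CPM in controls (median 7.388), which is 71 to 153 counts, and from 0.9499 to 9.879 CPM with PFNA (median 1.97). Of the PFNA libraries 10 of 11 lay below every control, and replicate 6 was the exception, at 9.879 CPM within the control range. PFNA over control came to -1.59 ± 0.315 (SE) on the log2 scale (edgeR adjusted p = 7.4e-05), and it was -2.01 without PFNA replicate 6. Means were 8.28 ± 2.42 and 2.77 ± 2.53 CPM (SD, n = 12 and 11).

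Cd44, the receptor, ranged from 141.9 to 647.4 CPM in controls (median 314.8) and from 61.27 to 235.4 CPM with PFNA (median 118.6). Of the PFNA libraries 5 lay above the lowest control, replicate 6, while the second lowest control, at 235.3 CPM, was level with the highest treated library. The mean fell from 340 ± 130 to 134 ± 54.5 CPM (SD, n = 12 and 11), which is -1.34 ± 0.226 (SE) on the log2 scale (edgeR adjusted p = 1.1e-05). Immune cells also carry CD44. The summed level of 5 immune markers was 0.8035 to 87.81 CPM in controls and 2.798 to 136.9 CPM with PFNA. Of the 5, 2 were called higher, near the 38.0% of all genes tested. The part of cell composition in the lower Cd44 was not tested.

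Both genes for the breakdown of hyaluronan were lower as well. Cemip2 encodes a cell surface protein described as a hyaluronidase. Its levels spread little, 118.3 to 195.6 CPM in controls (median 139.1) and 21.88 to 38.71 CPM with PFNA (median 25.83), with no overlap. In log2 units the change was -2.43 ± 0.108 (SE; edgeR adjusted p = 6.7e-16), from means of 148 ± 23.7 and 27.6 ± 5.71 CPM (SD, n = 12 and 11). By p-value it was number 38 of the genes tested, ahead of the other members.

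Hyal2 encodes a hyaluronidase anchored to the cell surface by a lipid. It ranged from 40.9 to 63.01 CPM in controls (median 51.27) and from 21.52 to 49.43 CPM with PFNA (median 37.38). The groups overlapped, though 9 of 11 PFNA libraries lay below every control. By edgeR the change was -0.44 ± 0.0957 (SE) in log2 units (adjusted p = 0.00023), from means of 50.8 ± 6.52 and 37.5 ± 6.72 CPM (SD, n = 12 and 11).

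Seen library by library, the members did not fall in step. PFNA replicate 6 held the highest treated values of Vcan, Tnfaip6, Ugdh, Hapln1 and Cemip2 and the lowest of Ptx3 (5.196 CPM) and Hyal2 (21.52 CPM). PFNA replicate 2 was low in most members, with the lowest Hapln1 and Cd44, the second lowest Has2, Ptx3, Ugdh, Vcan and Cemip2, and a Tnfaip6 ratio to the control mean of -4.18 on the log2 scale. PFNA replicate 8 had the highest Has2 and Hyal2 of the treated libraries, both near the control mean, while its Ptx3 was 7.1 lower on the log2 scale. PFNA replicate 5, the library in which no count of the 8 oocyte markers was found, had 1697 CPM of Vcan, the second highest treated value.

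**Figure D2:**
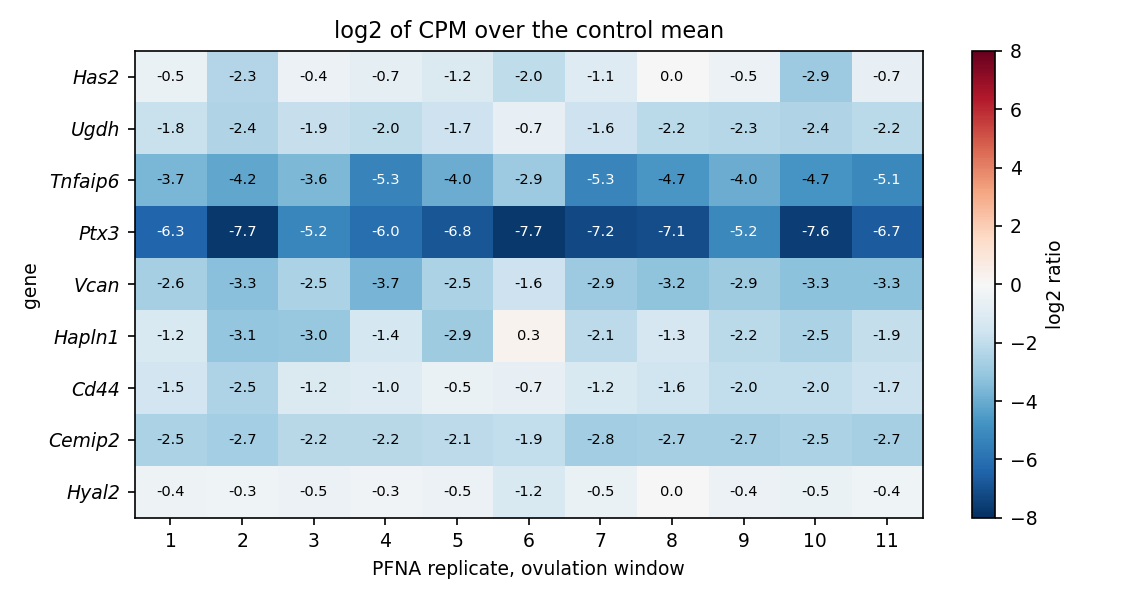
Log2 of the level of each member in each of the 11 PFNA libraries of the ovulation window over the mean of the 12 controls, on CPM, with blue below and red above the control mean. Ptx3 and Tnfaip6 are the darkest rows in every library, and Hapln1 in replicate 6, at 0.26, is the only value above 0.

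Because Has2 makes the chain that the other products bind, cut or build, each member was also set against Has2 within its own library, a comparison chosen after the data had been seen. Over the 8 ratios, two-sided permutation tests with 100000 resamples were adjusted together. Ptx3 per Has2 was 47.7-fold lower with PFNA and Tnfaip6 per Has2 8.50-fold lower (each permutation p = 1e-05, the smallest these permutations can give, adjusted p = 4e-05). Ptx3 per Has2 was lower in 11 of 11 and Tnfaip6 per Has2 in 10 of 11 PFNA libraries than in every control. Vcan per Has2 was 3.28-fold lower (adjusted permutation p = 0.00059), Cemip2 per Has2 2.54-fold (0.00074) and Ugdh per Has2 1.76-fold (0.024). In the other direction Hyal2 per Has2 was 1.56-fold higher (adjusted permutation p = 0.0088), as Hyal2 fell less than Has2. These shifts follow largely from the fold changes given above, and a gene unchanged by PFNA would also have a higher ratio to Has2. The share of all genes with such shifts was not computed, so the ratios are no further support. Hapln1 and Cd44 did not pass in this comparison (adjusted permutation p = 0.058 and 0.42), with ratios 1.74-fold and 1.20-fold lower. The ratio of Cd44 to Has2 ran from -1.02 to 0.69 in controls and from -1.49 to 1.45 with PFNA on the log2 scale, with 2 PFNA libraries below and 3 above every control.

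To compare levels between genes, CPM was divided by the exon length in GENCODE M21, whose starts match only 37.21% of those in the ovulation table, so the lengths the authors counted over may differ and the order is approximate. In hCG controls Tnfaip6 and Vcan came first, with medians of 684 and 563 CPM per kb, and did not part from each other (Tnfaip6 was above Vcan in 7 of 12 libraries). Ptx3 followed at 416.1, below Vcan in 11 of 12 libraries, and then Ugdh and Has2 at 70.91 and 69.65, which also did not part (Ugdh above in 5 of 12). Cd44 at 46.46, Cemip2 at 16.32, Hyal2 at 15.57 and Hapln1 at 1.252 CPM per kb ended the order, and Cemip2 and Hyal2 overlapped. With PFNA the order was Vcan (87.19), Has2 (45.7), Tnfaip6 (43.5), Ugdh (18.42), Cd44 (17.5), Hyal2 (11.35), Ptx3 (3.622), Cemip2 (3.031) and Hapln1 (0.3337 CPM per kb). Has2 and Tnfaip6 then did not part (Has2 above in 5 of 11 libraries), and Ptx3 had moved from the third place to the seventh.

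Within the groups, correlations of log2 levels between members were taken in 114 pairs over both windows, with permutation p-values adjusted over all of them. Tnfaip6 and Vcan varied together in ovulation controls (n = 12, Pearson's r = 0.84, permutation p = 0.00041, adjusted 0.022; Spearman's rho = 0.82, permutation p = 0.00155, adjusted 0.075) and again with PFNA (n = 11, r = 0.85, permutation p = 0.00077, adjusted 0.022; rho = 0.82, permutation p = 0.00329, adjusted 0.075). Without the 2 libraries farthest from the median of Tnfaip6, r was 0.79 in controls and 0.68 with PFNA. Ugdh and Cemip2 varied together in controls (n = 12, r = 0.84, permutation p = 0.00072, adjusted 0.022; rho = 0.80, permutation p = 0.00287, adjusted 0.075), with r = 0.64 without the farthest libraries. Vcan and Hyal2 ran against each other in controls (n = 12, r = -0.83, permutation p = 0.00065, adjusted 0.022; rho = -0.80, permutation p = 0.00279, adjusted 0.075), with r = -0.68 without the farthest. No other pair passed on r, none of these passed on rho after adjustment, and in the maturation window 0 of 42 pairs passed on r. Has2 was in none of the pairs that passed.

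The genes most like 4 of the members over the 12 ovulation controls were sought among 8888 genes by Pearson's r, as a description. For Tnfaip6 they were Ptgs2, the prostaglandin synthase of the preovulatory follicle (r = 0.94), Robo2 (0.93) and Phex (0.93). With PFNA, where Tnfaip6 fell, Ptgs2 fell by 5.21 and Robo2 fell by 2.94 in log2 units, while Phex rose by 1.40 (edgeR adjusted p = 7.7e-15, 2.2e-13 and 6.2e-07). For Ptx3 they were Srsf2 (0.95), Eif3j1 (0.93) and Slc20a1 (0.90). For Vcan they were Osbpl6 (0.98), Rab22a (0.98) and Vcl (0.98), and for Has2 they were H2-D1 (0.87), Rps6-ps4 (0.87) and Dedd (0.85). With PFNA, the genes most like Ptx3, Vcan and Has2 changed by -0.95 (Srsf2) to 0.74 (H2-D1) in log2 units. H2-D1 and Vcl were not called (edgeR adjusted p = 0.54 and 0.35), and Rps6-ps4 rose by 0.32 (0.00092). H2-D1 and Rps6-ps4 have near-identical copies elsewhere in the genome, so their counts are uncertain. Over the 11 PFNA libraries the r of these 12 genes with their member ranged from -0.25 for Dedd to 0.75 for Vcl.

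In the maturation window the matrix genes were low, apart from Vcan, Hyal2 and Ugdh, and the response was of another kind. Vcan and Has2 were lower with PFNA, Cd44 was higher, and Ugdh, Tnfaip6, Cemip2 and Hyal2 did not pass the test. Of the 13712 genes whose mean reached 1 TPM, limma on log2(TPM + 1) called 16.1% lower and 13.3% higher, 29.4% in all, at an adjusted p under 0.05. Of the 9 members 7 passed the filter on low values, and of these 2 were called lower and 1 higher. Cd44 passed the filter only through its PFNA libraries, and Has2 had a PFNA mean just under it, so this count is no support for a direction. With no filter both were still called (limma adjusted p = 0.035 for Cd44 and 0.032 for Has2). At least 2-fold lower on this scale was 1 member, Vcan, against 3.81% of genes (0.963% were at least 2-fold higher). No member had every PFNA library below every control, which held for 0.788% of genes, or above it, which held for 0.489%. Fold changes on this scale understate those of low genes.

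**Figure D3:**
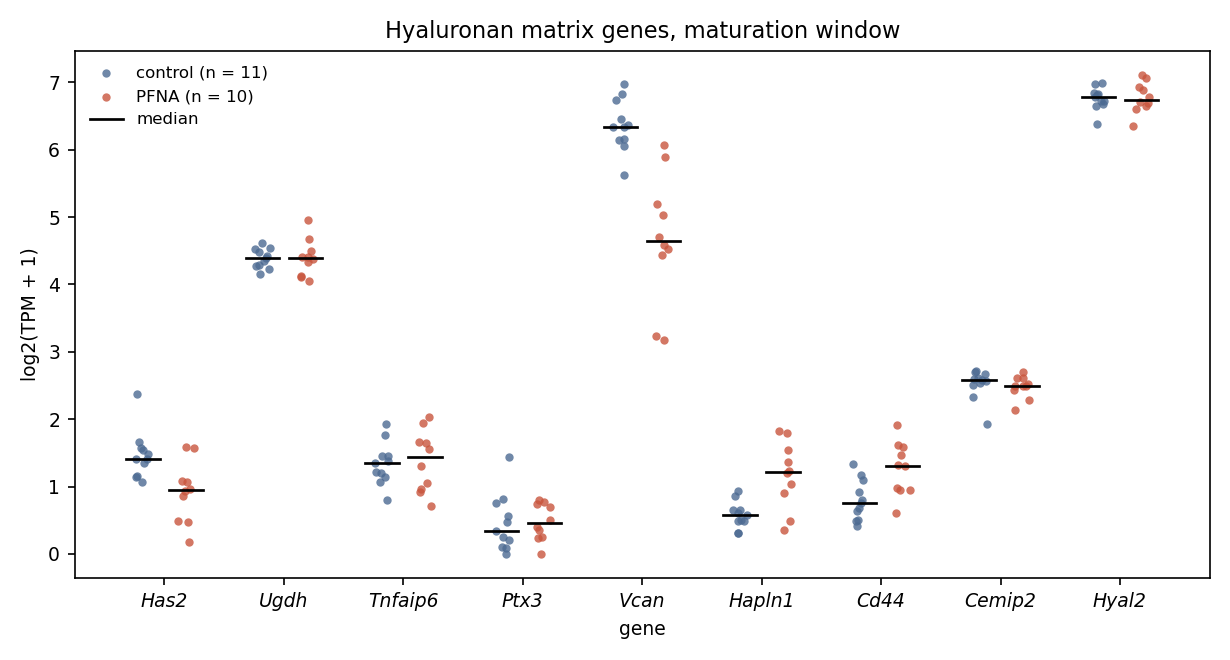
Level of the 9 members in each library of the maturation window as log2(TPM + 1), for 11 controls (blue) and 10 PFNA libraries (red), with group medians as black bars. Vcan falls in 8 of 10 PFNA libraries below every control, and the ranges of the groups overlap for all 9 members.

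Vcan was the member with the largest response here. It ranged from 48.31 to 124.5 TPM in controls (median 80.13) and from 8.077 to 66.34 TPM with PFNA (median 24.04). The overlap came from PFNA replicates 1 and 2, at 66.34 and 58.22 TPM, whereas 8 of 10 were under every control, at 8.077 to 35.64 TPM. The mean fell from 84.0 ± 22.2 (SD, n = 11) to 29.9 ± 19.2 TPM (SD, n = 10), which is -1.68 ± 0.295 (SE) on the log2 scale (limma adjusted p = 0.00023). Replicates 1 and 2 were also 2 of the 3 PFNA libraries with oocyte markers at about the control level. In replicate 10, which had the highest summed oocyte markers of all (183.8 TPM), Vcan was at 8.366 TPM, 9.96% of the control mean. Without replicates 1 and 2 the log2 fold change was -2.0 (limma adjusted p = 3e-06), and without replicate 10 it was -1.52 (0.00032). The summed granulosa markers were lower too, 30513 to 48989 TPM in controls and 13653 to 36008 TPM with PFNA. Of all genes tested 16.1% were called lower, and of the 7 granulosa markers 5 were. Their part in the fall of Vcan was not tested.

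Has2 was scarce in this window. It ranged from 1.09 to 4.176 TPM in controls (median 1.666) and from 0.1287 to 2.018 TPM with PFNA (median 0.9289). Of the PFNA libraries 6 of 10 lay below every control, and replicates 1 and 5 stood above the control median. PFNA over control came to -0.55 ± 0.179 (SE) on the log2 scale (limma adjusted p = 0.025), from means of 1.85 ± 0.843 and 0.980 ± 0.627 TPM (SD, n = 11 and 10). The size depends on the pseudocount: with 0.1 in place of 1 it was -1.03 (limma adjusted p = 0.026), past 2-fold.

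Cd44 ranged from 0.3257 to 1.513 TPM in controls (median 0.6819) and from 0.5167 to 2.784 TPM with PFNA (median 1.479). The groups overlapped, with 4 of 10 PFNA libraries above every control. In log2 units the change was 0.47 ± 0.161 (SE; limma adjusted p = 0.032), and the call did not survive 7 of 21 fits with a library left out, those without PFNA replicate 3, 4, 9 or 10 or control replicate 3, 6 or 11. Replicate 10 had the most Cd44, and also the highest summed immune markers (191.4 TPM, with the next PFNA library at 103.1) and fibroblast markers (1310 TPM, next 633). Immune markers summed to 2.116 to 80.23 TPM in controls and 31.63 to 191.4 TPM with PFNA. Of all genes tested 13.3% were called higher, and of the 3 immune markers tested 2 were. Their part in the higher Cd44 was not tested, and without replicate 10 the log2 fold change was 0.40 (limma adjusted p = 0.062). With a pseudocount of 0.1 it was 0.86 (limma adjusted p = 0.035).

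Hapln1 and Ptx3 were under the filter. Hapln1 had 0.2336 to 0.9142 TPM in controls (median 0.4887) and 0.2836 to 2.536 TPM with PFNA (median 1.323), and in a fit with no filter its log2 fold change was 0.59 (limma adjusted p = 0.012). PFNA replicates 1 and 2 had the lowest Hapln1 of their group, 0.2836 and 0.4018 TPM, and replicate 10 the highest. Ptx3 had at most 1.702 TPM in a control and 0.7434 TPM with PFNA, and 1 library of each group was listed at 0.

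The other tested members did not pass. For Hyal2 the log2 fold change was 0.02, with an approximate 95% interval from -0.15 to 0.19 (limma adjusted p = 0.90). For Ugdh it was 0.01 (-0.18 to 0.19, adjusted p = 0.97 by limma), for Cemip2 -0.05 (-0.22 to 0.13, 0.74) and for Tnfaip6 0.04 (-0.30 to 0.37, 0.90), the widest of these 4 intervals. The signs of Ugdh and Hyal2 turned under another scaling (log2 fold changes of -0.02 and -0.01). In TPM the order in controls was Hyal2 (median 109.4), Vcan (80.13), Ugdh (19.92), Cemip2 (4.98), Has2 (1.666), Tnfaip6 (1.543), Cd44 (0.6819), Hapln1 (0.4887) and Ptx3 (0.2607). Has2 and Tnfaip6 did not part (Has2 above in 5 of 11 libraries), and Cd44, Hapln1 and Ptx3 overlapped.

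The effects of PFNA in both windows were compared per gene, each within its own table, since levels in TPM and in counts cannot be set against each other. Of 11215 genes tested in both, 35.6% had a lower effect in the ovulation window and 32.0% a higher one, 67.7% in all (limma adjusted p under 0.05). Of the 7 members tested, 6 had a lower effect in the ovulation window. The difference was -4.19 for Tnfaip6 (SE 0.325, limma adjusted p = 4.5e-14), -2.35 for Cemip2 (SE 0.133, 1.4e-19), -1.91 for Ugdh (SE 0.172, 1.5e-12) and -1.81 for Cd44 (SE 0.273, 2.1e-07) on the log2 scale. It was smaller for Vcan, -1.12 (SE 0.364, limma adjusted p = 0.0066), which fell in both windows, and for Hyal2, -0.46 (SE 0.129, 0.0017). For Has2 the difference of -0.54 (SE 0.310, limma adjusted p = 0.12) did not pass. Its maturation effect was -0.547 with a pseudocount of 1 and -1.03 with 0.1, beside -1.08 in the ovulation window with 1. The maturation effect of Cd44 moved likewise from 0.47 to 0.86. The size of a difference for genes low in the maturation window therefore depends on the pseudocount. Ptx3 and Hapln1 could not be tested, being under the maturation filter, and the difference for Cd44 rests on a maturation effect that passed that filter only through the PFNA libraries.

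**Figure D4:**
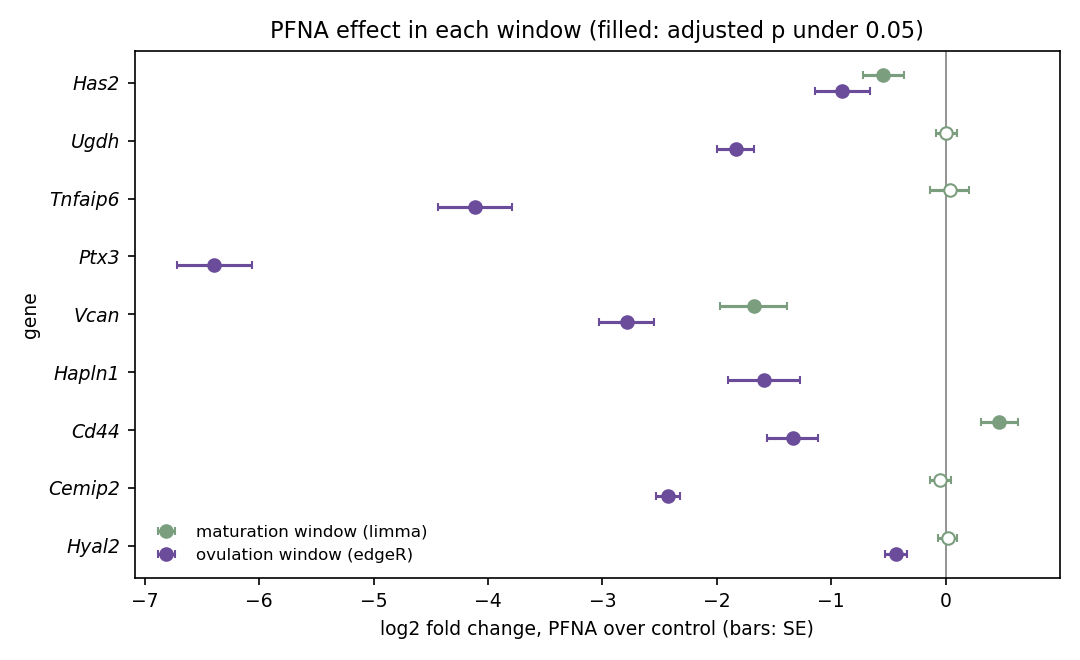
Log2 fold change of PFNA over control with its SE for each member, in the maturation window (green, limma on log2(TPM + 1)) and the ovulation window (purple, edgeR), with filled points for an adjusted p under 0.05. All 9 ovulation points lie left of 0, and in the maturation window only Has2 and Vcan do so with a filled point, while Cd44 lies right of it.

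Around the members, 38 other genes of the hyaluronan pathway and 14 inducers of cumulus expansion were read from the same fits. In the ovulation window 25 pathway genes were tested, 11 were called higher and 9 lower, and their median log2 fold change was 0.06 beside 0.04 for all genes. Of all genes tested, 38.0% were called higher and 35.2% lower, so the pathway counts lie near the share over all genes. The members were all called lower, but they were chosen with earlier results of these data known. Ambp and Itih1 were not analysed here.

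Of the other synthases, Has1 fell from 19.1 ± 13.3 to 6.83 ± 2.35 CPM (log2 fold change -1.47, edgeR adjusted p = 0.00028), though no PFNA library lay below every control. Has3 rose at a low level, from 3.40 to 6.38 CPM (0.91, edgeR adjusted p = 0.00041). Among 6 precursor enzymes, which make the hyaluronan sugars together with Ugdh, 2 rose and 2 fell. Gfpt2, an isoform of the rate-limiting enzyme of the hexosamine route, fell from 325 ± 37.3 to 117 ± 34.8 CPM (-1.47, edgeR adjusted p = 1.3e-09), and no PFNA library reached a control. Gnpnat1, a later enzyme of that route, rose from 40.1 ± 4.60 to 71.8 ± 8.60 CPM (0.84, edgeR adjusted p = 1.1e-10), with all 11 above. Itih5, of the inter-alpha-inhibitor heavy chain family, rose by 0.35 on the log2 scale (edgeR adjusted p = 0.023), and that call was lost without PFNA replicate 8 or 11 (0.055 and 0.054).

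Of 5 tested proteases that cut versican, 4 were called lower and 1 higher, where 35.2% and 38.0% of all genes were. Adamts9 fell from 441 ± 102 to 72.7 ± 35.2 CPM (log2 fold change -2.60, edgeR adjusted p = 3.3e-11), again without overlap. Adamts4 fell from 188 ± 83.5 to 52.1 ± 23.7 CPM (-1.85, edgeR adjusted p = 8.1e-06), but no PFNA library lay below every control. Adamts15 fell by 2.88 on the log2 scale, from 2.81 to 0.371 CPM (edgeR adjusted p = 2.5e-05). At that PFNA level it may have passed the filter on low counts only through its controls. Its fall is therefore no support for a direction. Adamts5 rose from 30.3 ± 9.61 to 79.6 ± 33.5 CPM (1.39, edgeR adjusted p = 4.1e-06). Adamts1, named after its values were seen, fell from 469 ± 143 to 272 ± 44.5 CPM (-0.79, edgeR adjusted p = 1.5e-05).

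Of the remaining pathway genes, Bcan and the receptors Hmmr and Stab1 rose by 1.26, 1.12 and 1.15 in log2 units (edgeR adjusted p = 0.00068, 1.5e-06 and 0.022). Without PFNA replicate 5 and control replicates 2 and 7, whose oocyte markers stood apart, Stab1 no longer passed (edgeR adjusted p = 0.053). Hexa, a lysosomal hexosaminidase that trims hyaluronan fragments, rose from 92.9 ± 6.53 to 184 ± 37.0 CPM (0.99, edgeR adjusted p = 4.9e-10), opposite to both breakdown genes among the members. Cemip, a relative of Cemip2, fell by 1.25 (edgeR adjusted p = 0.0051) at under 4 CPM. Cemip and Acan had PFNA means of 1.62 and 1.54 CPM and may have passed the filter on low counts only through their controls. Their falls are therefore no support for a direction. Acan fell by 1.36 (edgeR adjusted p = 0.037), a call not made in 7 of 23 fits with a library left out, those without PFNA replicate 2, 4, 5, 6 or 10 or control replicate 5 or 7, with adjusted p up to 0.11.

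The 14 inducers were called lower in 7 cases and higher in 7, with a median log2 fold change of -0.03, in a comparison that called 73.2% of all genes. Whether the roles differ was not tested. Among the EGF-like and prostaglandin signals 5 of 7 fell. Ptgs2 fell from 5646 ± 1997 to 153 ± 57.0 CPM (log2 fold change -5.21, edgeR adjusted p = 7.7e-15), the EGF-like ligands Ereg, Areg and Btc fell by 3.68, 2.36 and 2.09 (edgeR adjusted p = 1.6e-08, 2.1e-06 and 1.9e-07), and Ptger4, a prostaglandin E2 receptor, by 1.94 (7.3e-08). Among the oocyte factors and their receptors and mediators 5 of 7 rose, with Gdf9 and Bmp15 at 1.18 and 1.24 (edgeR adjusted p = 0.00078 and 0.0021) and the receptor Bmpr1b at 0.63 (7.1e-09). The Bmp15 call was lost with limma on the same counts (adjusted p = 0.087). Gdf9 and Bmp15 are transcribed in the oocyte, and 2 of the 8 oocyte markers were called higher in the same comparison, where 38.0% of all genes were.

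**Figure D5:**
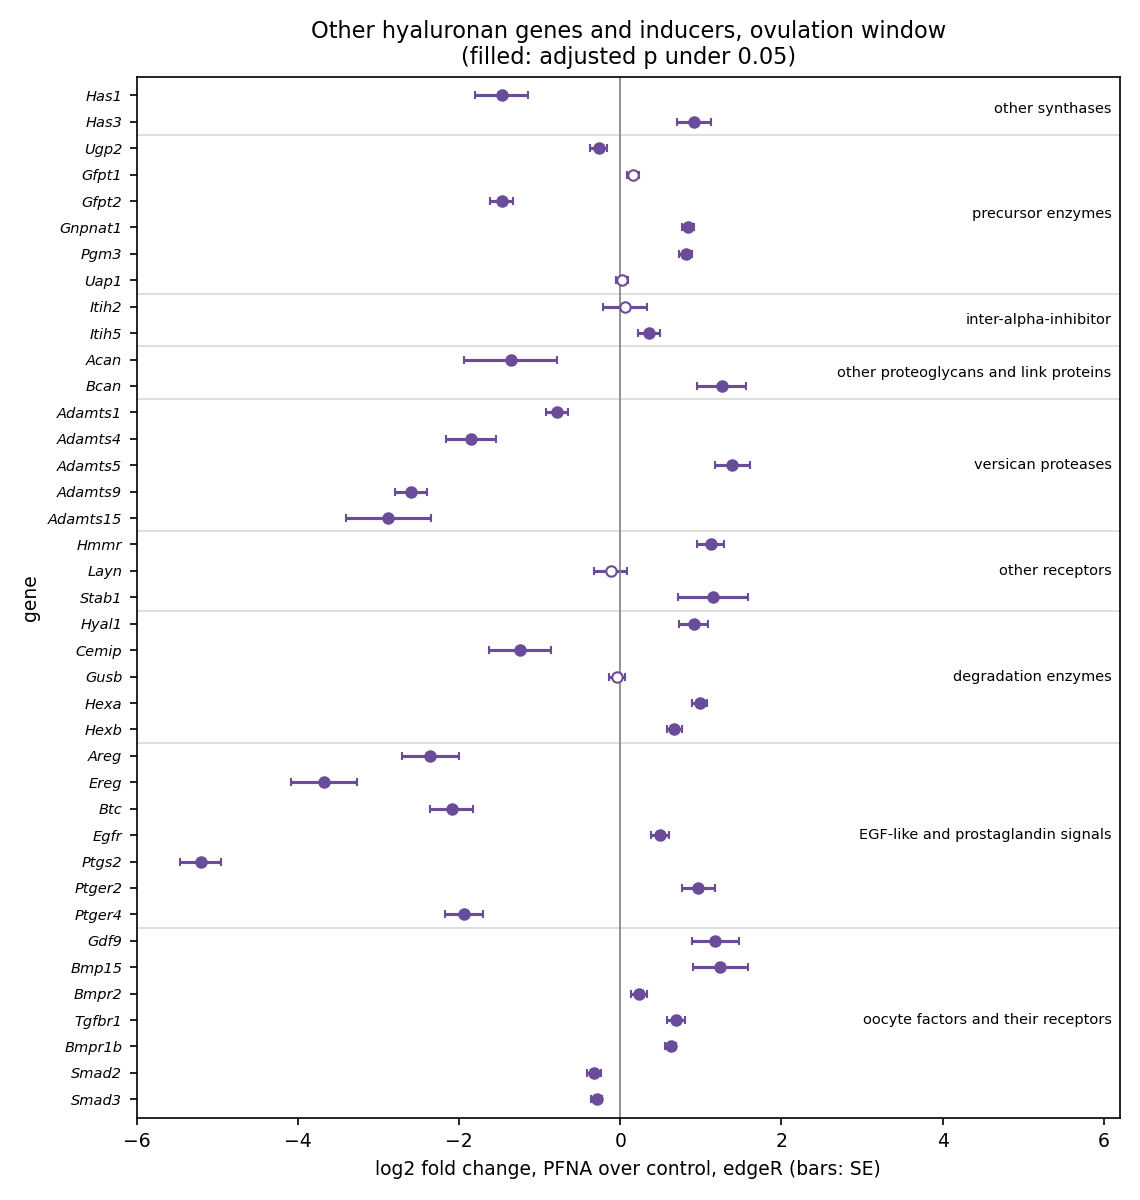
Log2 fold change of PFNA over control with its SE (edgeR) in the ovulation window for the other pathway genes and the inducers that were tested, grouped by role, with filled points for an adjusted p under 0.05. The EGF-like ligands, Ptgs2, Ptger4, Adamts4, Adamts9 and Adamts15 lie far to the left, while the oocyte factors, Hexa and Gnpnat1 lie to the right.

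In the maturation window 23 pathway genes were tested. Of these 3 were called higher and 6 lower, where 13.3% and 16.1% of all genes were. Their median log2 fold change was -0.03, beside 0.02 for all genes. Hmmr, a receptor that is also a gene of dividing cells, fell from 8.09 ± 1.45 to 2.80 ± 2.09 TPM (-1.39, limma adjusted p = 3.4e-05), opposite in sign to its ovulation value. Itih5 rose from 8.09 ± 2.62 to 19.9 ± 11 TPM (1.12, limma adjusted p = 0.0010) and Bcan by 0.53 (0.021), while Gnpnat1 and Adamts5 fell by 0.49 and 0.47 (limma adjusted p = 0.0020 and 0.0065), both of which had risen in the ovulation window. Has3 and Hexa had log2 fold changes of -0.21 and 0.21 and did not pass (limma adjusted p = 0.18 and 0.070), though Hexa passed without PFNA replicate 1 or 2 (0.012 and 0.029). Of 12 inducers tested, 5 were higher and 2 lower, where 13.3% and 16.1% of all genes were. Areg, among the higher ones, had a control mean of 0.953 TPM and a PFNA mean of 2.76 TPM. It thus passed the filter of 1 TPM only through its PFNA libraries, so this count is no support for a direction. Ptger2 rose from 4.07 ± 1.04 to 7.73 ± 1.64 TPM (0.79, limma adjusted p = 8.2e-05). Gdf9 fell by 3.31 and Bmp15 fell by 3.165 on the log2 scale (limma adjusted p = 0.0011 and 0.0038), together with all 8 oocyte markers, and PFNA replicate 10 was above every control for both.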

How the data were processed

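Per the labels' protocols, follicle RNA came from a small-input kit and poly-A selection, with randomly primed cDNA. The submitters' processing notes name Partek, Bowtie2 and HISAT2, with no version. The role of each aligner, the annotation and the use of strand are not given in the sources used here. The authors deposited TPM in the maturation table, although it is named as raw counts: each library sums to 1000000 and 80.23% of values are not whole (tolerance 0.01). For ovulation the deposited values are estimated counts (9.816% not whole), which were rounded for the tests.

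Gene starts match GENCODE M21 on GRCm38 for 99.41% of symbols in the maturation window and for 37.21% in the other, which was therefore made with other gene models. Each column was given to the sample whose title it carries. The column CN6 was taken as maturation control replicate 6, titled CM6, and maturation control replicate 4 was not analysed here. There were 0 columns of per-sample values left unused. No label gives a batch.

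The ovulation window was tested with edgeR 4.0.16 in R 4.3.3 (filterByExpr, TMM, robust quasi-likelihood test), on counts. The maturation window was tested with limma 3.58.1 (trend, robust) on log2(TPM + 1), where a gene's mean reached 1 TPM. The difference between windows was the limma effect on log2(CPM + 1) for ovulation less the effect on log2(TPM + 1) for maturation, with Satterthwaite degrees of freedom. P-values were two-sided and adjusted over all genes tested with the Benjamini-Hochberg method, and a value under 0.05 was called. The fits were tested on simulated data. Alternatives were another pseudocount (0.1), no filter on low values, median-ratio scaling, DESeq2 1.42.0, limma on the counts, the replicate number as a block, and leaving out libraries. The correlations within groups had been planned without p-values and were given permutation p-values.

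The members and gene lists were chosen with earlier results of these data known. Besides the 9 members, the genes named were, per window, the gene of each role with the smallest p and any listed gene called with at least a 2-fold change, and the 3 genes most like Has2, Tnfaip6, Ptx3 and Vcan in ovulation controls with a mean of at least 10 CPM. Promoter sequences are from RefSeq, GRCm38.p6.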

Additional observations from a re-analysis of the deposited data

Results flagged for a closer look

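The PFNA effect differed between the windows for 6 members by a test of the difference itself (limma, ovulation minus maturation, log2 scale): -1.907 for Ugdh (adjusted p = 1.5e-12), -4.192 for Tnfaip6 (4.5e-14), -1.124 for Vcan (0.0066), -1.814 for Cd44 (2.1e-07), -2.349 for Cemip2 (1.4e-19) and -0.458 for Hyal2 (0.0017). Cd44 passed the maturation filter only through its PFNA libraries.

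Maturation PFNA replicate 10 stood far above the other 9 libraries of its group in 6 of 25 results searched by Dixon's gap ratio. Chance would give about 1.25 if the results were independent and normally spread. The search used TPM without logs, and Gdf9, Bmp15 and the oocyte markers share the oocyte as a source. The 6 against 1.25 is therefore no measure of an excess. Itih5 was at 47.21 TPM (next library 26.33), Gdf9 at 93.82 (33.18) and Bmp15 at 110.8 (30.31). Its summed oocyte markers were at 183.8 TPM (next 85.11), fibroblast markers at 1310 (633) and immune markers at 191.4 (103.1). None of the 9 members was among the 6, and the cause was not tested.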

How the results depend on the processing

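In the ovulation window the 9 members were called lower under each alternative and in each of 23 leave-one-out fits, and the filter-free fit moved the count of higher pathway genes from 11 to 17. In the maturation window the filter-free fit called 2 members higher in place of 1, and leaving out a library gave 0 to 1. Without PFNA replicates 1 and 2 there were 5 higher pathway genes in place of 3. The difference between windows kept its 21 values on the same side.

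The replicate numbers did not pair the samples: over 9 maturation and 11 ovulation pairs the correlations of deviations ran from -0.138 to 0.168 and from -0.193 to 0.0730, and 1 and 0 controls correlated best with their own number. With the replicate block, which drops libraries without a shared number, 1036 genes were called higher in the maturation window in place of 1824, members called higher were 0 and lower 1, and inducers called higher were 1 in place of 5. Has2 then had a log2 fold change of -0.5752 (adjusted p = 0.077) and Cd44 of 0.4458 (0.083, limma), about as large as without the block, and outside the members Bcan had 0.14 (limma, maturation) and Bmp15 0.061 (edgeR, ovulation), no longer called. By limma on the counts Bmp15 had 0.087. Without ovulation PFNA replicate 5 and control replicates 2 and 7, Acan had 0.11 and Stab1 0.053 (edgeR adjusted p).

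Values near 0 changed sign in the maturation window: Ugdh to -0.02339 under median-ratio scaling and -0.02607 with the replicate block, and Hyal2 to -0.01279 under that scaling and -0.05908 without PFNA replicates 1 and 2. Over leave-one-out fits Ugdh ran from -0.05532 to 0.04468, Tnfaip6 from -0.03598 to 0.11 and Hyal2 from -0.01953 to 0.06581. The filter-free fit moved the median of all ovulation genes by 0.221 on the log2 scale. The cause of these moves was not tested. The depth behind TPM is unknown, and Ptx3 and Hapln1, under the filter, had no call in the maturation window.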
